A study of Mus musculus with 12 samples.

Results

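The 10 genes described here encode protein tyrosine phosphatases. They were taken by name from the 55421 gene identifiers of the count table, with earlier results of these data known. They are the SH2 domain phosphatases Ptpn6 (SHP-1) and Ptpn11 (SHP-2), the MAP kinase phosphatase Ptpn7, the PEST family members Ptpn12, Ptpn18 and Ptpn22, the closely related pair Ptpn1 and Ptpn2, and the receptor phosphatases Ptprc (CD45) and Ptprj. Messenger RNA was sequenced from 12 libraries in 4 groups of 3: PMJ2R cells treated with 5 nM rebastinib for 6 h, control PMJ2R cells, ID8 cells given the same dose for the same time, and control ID8 cells. PMJ2R is a macrophage line from a peritoneal lavage, with a C57BL6J background that carries the v-raf and v-myc oncogenes, and ID8 is an epithelial line of ovarian origin with a C57BL6J wildtype genotype; both are female. Rebastinib is a small-molecule kinase inhibitor, named in the study's title as a Tie-2 antagonist. Each cell type is represented by a single established line, and nothing in the labels ties the 3 replicates of a group to 3 cultures, so the p-values measure the spread between these libraries, which may be technical. The study's design also names arms with chemotherapy, which are not among these 12 libraries.

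Protein tyrosine phosphatases remove the phosphate that tyrosine kinases add, and so set how long and how strongly a kinase signal lasts. SHP-1 is found mainly in blood cells, where inhibitory receptors recruit it to switch off kinase signalling, while SHP-2 is found in most tissues and helps growth factor receptors to activate RAS and the MAP kinases. CD45 is abundant on nucleated blood cells and acts on SRC family kinases, the same kinases that the PEST family member encoded by Ptpn22 restrains together with CSK.

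The libraries held between 19025504 and 27070556 counts. In the check of cell identity, 14 of 15 macrophage markers reached 1 CPM (CPM is the read count scaled to library size) in both PMJ2R groups and 3 of 15 in both ID8 groups, where Adgre1, Spi1 and Laptm5 were at 0 counts. Of 12 markers of ovarian surface epithelium and mesothelium, 10 reached that level in ID8 cells with rebastinib and 11 in control ID8 cells, against 0 in either PMJ2R group. The make-up of the libraries differed with treatment: genes that overlap ribosomal RNA took 5.63% to 5.99% of counts in rebastinib PMJ2R libraries against 0.0927% to 0.172% in control PMJ2R libraries, and 1.05% to 1.60% in rebastinib ID8 libraries against 0.106% to 0.355% in control ID8 libraries. Ribosomal protein genes took 7.59% to 7.90% against 4.98% to 5.75% in PMJ2R and 8.57% to 10.6% against 4.66% to 5.38% in ID8. The part of these differences in the results below was not tested, and an effect of how treated and control cells were handled cannot be told apart from that of the drug. In such bulk samples, fewer cells of a kind and less RNA per cell cannot be told apart either.

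In PMJ2R macrophages, the transcripts of SHP-1 and Ptpn7 were close to an order of magnitude less abundant with rebastinib, that of Ptpn22 was also lower, and that of Ptpn12 was higher. The other 6 genes differed by 0.33 or less on the log2 scale, in sizes and directions that moved with the scaling, as given below. By edgeR's quasi-likelihood test with Benjamini-Hochberg adjustment over all 14010 genes tested at 0.05, 9 of the 10 genes were called, 6 higher and 3 lower. Of all genes tested, 83.7% were called, 40.1% higher and 43.6% lower, so a call by itself sets none of these genes apart. All 10 genes passed the filter on low counts in this line.

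Transcription start regions of the 3 genes that fell in PMJ2R cells are shown with that of Ptpn11, which did not fall, because the first 3 share a direction. Each is a RefSeq window on GRCm38.p6 running from 250 bases before to 50 bases after an annotated start, written 5′ to 3′ on the gene's strand. Capitals mark GAGGAAG or its reverse complement CTTCCTC, a purine-rich string of the kind that ETS factors such as PU.1 recognise. The windows are chr6:124738660-124738959 on the minus strand for Ptpn6, chr1:135132450-135132749 on the plus strand for Ptpn7, chr3:103859545-103859844 on the plus strand for Ptpn22 and chr5:121191348-121191647 on the minus strand for Ptpn11.
Ptpn6: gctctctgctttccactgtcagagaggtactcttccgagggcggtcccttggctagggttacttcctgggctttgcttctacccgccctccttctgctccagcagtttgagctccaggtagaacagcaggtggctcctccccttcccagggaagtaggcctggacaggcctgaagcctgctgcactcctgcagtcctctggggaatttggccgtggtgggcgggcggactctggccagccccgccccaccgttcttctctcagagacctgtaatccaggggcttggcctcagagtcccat
Ptpn7: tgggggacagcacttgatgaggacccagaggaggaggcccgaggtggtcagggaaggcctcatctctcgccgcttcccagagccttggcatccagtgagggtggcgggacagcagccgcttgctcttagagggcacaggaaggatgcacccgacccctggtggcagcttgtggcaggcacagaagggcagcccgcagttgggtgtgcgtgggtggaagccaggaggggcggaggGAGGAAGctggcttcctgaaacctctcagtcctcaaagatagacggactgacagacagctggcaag
Ptpn22: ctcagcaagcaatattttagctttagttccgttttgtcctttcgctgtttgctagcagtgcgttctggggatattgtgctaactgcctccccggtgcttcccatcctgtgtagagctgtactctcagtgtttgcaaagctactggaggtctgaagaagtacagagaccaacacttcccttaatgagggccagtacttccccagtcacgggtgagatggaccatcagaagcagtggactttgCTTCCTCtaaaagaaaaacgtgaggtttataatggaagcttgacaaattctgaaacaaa
Ptpn11: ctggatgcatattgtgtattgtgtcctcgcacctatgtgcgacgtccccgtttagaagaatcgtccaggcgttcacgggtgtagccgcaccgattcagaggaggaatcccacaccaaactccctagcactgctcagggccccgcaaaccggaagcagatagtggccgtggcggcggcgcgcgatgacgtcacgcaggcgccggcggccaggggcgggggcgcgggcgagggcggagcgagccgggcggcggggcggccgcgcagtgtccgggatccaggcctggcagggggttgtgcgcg
The string occurred once in the window of Ptpn7, 16 bases before the start, and once in that of Ptpn22, 9 bases before it, but not in the windows of Ptpn6 and Ptpn11. It also occurred in both windows of Ptprj, which did not fall. Only this exact string was marked, and other sequences that ETS factors recognise were not searched for in any window. Whether such sequences relate to the direction of the change was not tested. Across both strands it was present in 13.6% of the 32851 windows of this length in the RefSeq table, and in 4 of the 12 windows examined for 8 of the 10 genes. Ptpn12 had no window there, and Ptpn2 was left out. The windows shown held 8 CpG dinucleotides for Ptpn6, 10 for Ptpn7, 6 for Ptpn22 and 37 for Ptpn11, beside a median of 7 and an upper quartile of 20 for all windows. CpG content did not separate the genes that fell, since Ptprc, which did not fall, held 2 and 4 in its windows and Ptprj held 6 and 42; the other windows of Ptpn7 and Ptpn22 held 7 and 3. A match describes the letters and is no evidence of a bound site.

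Ptpn6 encodes SHP-1, the phosphatase that inhibitory receptors of myeloid cells recruit through its SH2 domains. It had 31.7, 35.2 and 34.6 CPM in the PMJ2R libraries with rebastinib, against 289, 294 and 301 CPM in the control PMJ2R libraries. The groups lay far apart, with little spread inside either. The log2 fold change was -3.12 (SE 0.054, edgeR adjusted p = 1.28e-17), a level of 0.115 of the control, and 3.10% of the genes tested had a lower fold change. The gene lies on chr6:124720707-124738714 (GRCm38, minus strand), and 195 bp of its exons, 6.96% of their length, overlap the antisense gene Gm20531. The sources used here do not give the strand setting of the counting, so reads there cannot be assigned to one gene; Gm20531 itself had 296 counts with rebastinib and 4273 in controls, beside 1627 counts of Ptpn6 with rebastinib and 26927 in controls.

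The second SH2 domain phosphatase, Ptpn11 (SHP-2), needed for signalling from growth factor and cytokine receptors, did not share the fall of Ptpn6. It had 175, 180 and 178 CPM in rebastinib PMJ2R libraries and 141, 152 and 133 CPM in control PMJ2R libraries. The groups did not overlap, but the difference was small, with a log2 fold change of 0.32 (SE 0.051, edgeR adjusted p = 1.42e-05). In CPM per kilobase of exon (RPKM), which allows levels to be compared between genes, Ptpn6 stood at 12.1 ± 0.667 and Ptpn11 at 23.7 ± 0.373 with rebastinib, against 105 ± 2.09 for Ptpn6 and 18.98 ± 1.26 for Ptpn11 in controls (SD, n = 3 each). The more abundant of the SH2 domain phosphatases was therefore SHP-2 in treated macrophages and SHP-1 in control macrophages.

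Ptpn7, whose product (hematopoietic PTP) binds and dephosphorylates MAP kinases, changed almost as much as Ptpn6. It had 25.7, 28.2 and 25.7 CPM in rebastinib PMJ2R libraries and 201, 207 and 213 CPM in control PMJ2R libraries. The log2 fold change was -2.96 (SE 0.057, edgeR adjusted p = 2.55e-17). The 3 treated libraries were all below every control library, by a wide margin.

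The PEST family, which is named for a sequence region beside its catalytic domain, held 1 gene that was lower, 1 that was higher and 1 that was not called in PMJ2R cells. Ptpn22, which encodes the phosphatase PEP that binds CSK and restrains SRC family kinases, had 6.01, 4.74 and 5.45 CPM with rebastinib and 18.8, 19.3 and 21.6 CPM in controls. The groups did not overlap, and the log2 fold change was -1.88 (SE 0.11, edgeR adjusted p = 1.71e-11). Ptpn12, which encodes PTP-PEST, a phosphatase of adhesion and cytoskeletal proteins such as p130Cas, had 147, 149 and 157 CPM with rebastinib and 69.6, 73.3 and 66.4 CPM in controls. Every treated library was above every control library, with a log2 fold change of 1.12 (SE 0.052, edgeR adjusted p = 7.32e-13), a fold of 2.17. Ptpn18, the remaining member of the family, had 119, 112 and 116 CPM with rebastinib and 119, 111 and 108 CPM in controls. Its groups overlapped in PMJ2R cells, and it was not called (log2 fold change 0.04, 95% interval -0.06 to 0.14, edgeR adjusted p = 0.436). How often the groups overlapped among all genes tested was not counted, so a lack of overlap sets no gene apart. The exons of Ptpn18 share 492 bp, 7.58% of their length, with Gm28417 on the opposite strand, so the same doubt about strand applies.

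Ptpn1 (PTP1B) and Ptpn2 (TC-PTP) are sister enzymes that act on insulin receptor, JAK kinases and STAT proteins. Ptpn1 had 65.4, 70.6 and 70.8 CPM in rebastinib PMJ2R libraries and 52.8, 55.5 and 58.3 CPM in control PMJ2R libraries. Ptpn2 had 35.7, 37.9 and 37.0 CPM with rebastinib and 33.1, 32.5 and 33.7 CPM in controls. Both were slightly higher with treatment, by 0.31 (SE 0.058, edgeR adjusted p = 7.35e-05) and 0.16 (SE 0.062, edgeR adjusted p = 0.0263) on the log2 scale. The call of Ptpn2 was lost, among other settings, when any of 3 single libraries was left out, with an adjusted p of 0.0765 without rebastinib replicate 2, 0.0600 without control replicate 1 and 0.0971 without control replicate 2.

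Of the receptor phosphatases, Ptprc encodes CD45 and Ptprj encodes CD148, a phosphatase of SRC family kinases and of growth factor receptors that macrophages also carry. Ptprc had 438, 425 and 431 CPM in rebastinib PMJ2R libraries and 405, 407 and 354 CPM in control PMJ2R libraries. Its log2 fold change was 0.15 (SE 0.052, edgeR adjusted p = 0.0134), and without control replicate 3, the lowest library, it was 0.08 with an edgeR adjusted p of 0.0501. Ptprj had 53.3, 53.7 and 50.7 CPM with rebastinib and 38.9, 42.7 and 43.6 CPM in controls, a log2 fold change of 0.33 (SE 0.062, edgeR adjusted p = 7.29e-05). CD45 transcript therefore differed little in the same libraries in which SHP-1 transcript was nearly an order of magnitude lower.

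**Figure D1:**
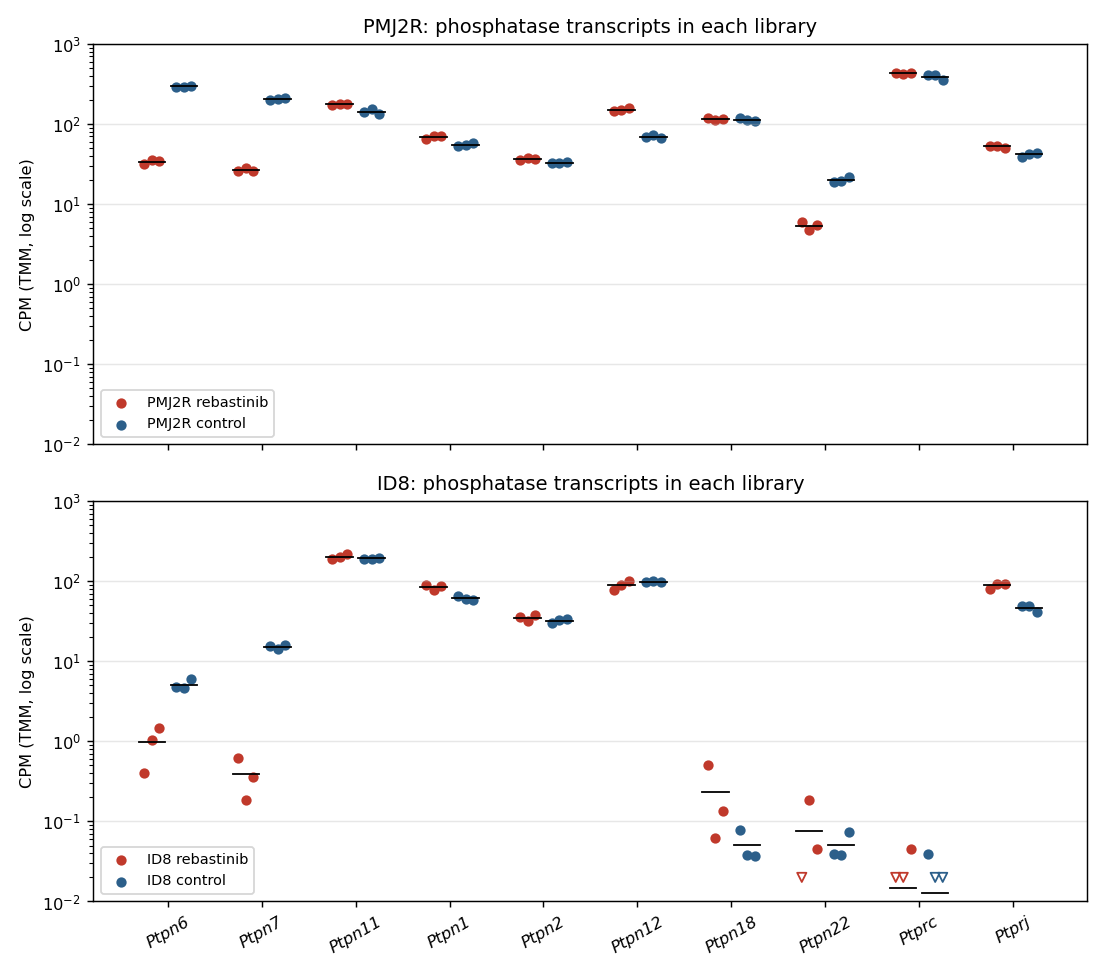
Level of each phosphatase transcript in CPM on a log axis (scaled by the trimmed mean of M values, TMM, within each line), 1 point per library, in PMJ2R (top) and ID8 (bottom), rebastinib left of control; the black line is the group mean and open triangles are libraries with 0 counts. Ptpn6 and Ptpn7 are lower with rebastinib in both lines, Ptpn22 is lower in PMJ2R, and Ptpn18, Ptpn22 and Ptprc are near 0 in ID8.

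The direction of the small differences depended on the scaling. When libraries were scaled by their totals alone, the median log2 fold change of all genes in PMJ2R was -0.60, against -0.05 with the scaling by TMM used above. The 10 genes moved with it, so that Ptpn11, Ptpn1, Ptpn2, Ptpn18, Ptprc and Ptprj came out lower with rebastinib (log2 fold changes of -0.24, -0.25, -0.40, -0.51, -0.41 and -0.22) and Ptpn12 alone stayed higher (0.56). Without the filter on low counts, Ptpn11, Ptpn1 and Ptprj were no longer called (edgeR adjusted p of 0.0646, 0.161 and 0.107). With the trend over gene length and GC content removed, the median of all genes was 0.13. The values were then 0.99 for Ptpn1, 0.80 for Ptpn11, 0.74 for Ptprj and 0.23 for Ptprc. Ptpn18 was called higher (0.39, edgeR adjusted p = 1.61e-07) and Ptpn2 was not called (0.10, edgeR adjusted p = 0.173). Relative to the median of all genes, the values were the same with TMM and with library totals, because scaling a library moves all its genes together. They were -3.08 for Ptpn6, -2.92 for Ptpn7, -1.84 for Ptpn22, 1.16 for Ptpn12, and between 0.09 and 0.38 for the other 6 genes. With the trend removed they were -2.83 for Ptpn6, -2.60 for Ptpn7, -1.76 for Ptpn22 and 1.11 for Ptpn12. The others were then 0.85 (Ptpn1), 0.67 (Ptpn11), 0.61 (Ptprj), 0.25 (Ptpn18), 0.10 (Ptprc, against 0.20 with TMM) and -0.04 (Ptpn2, against 0.20). Ptpn6 kept its direction and its call under all 16 other settings run, between -3.68 and -2.70, and so did Ptpn7 (-3.52 to -2.47), Ptpn22 (-2.44 to -1.63) and Ptpn12 (0.56 to 1.25).

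**Figure D2:**
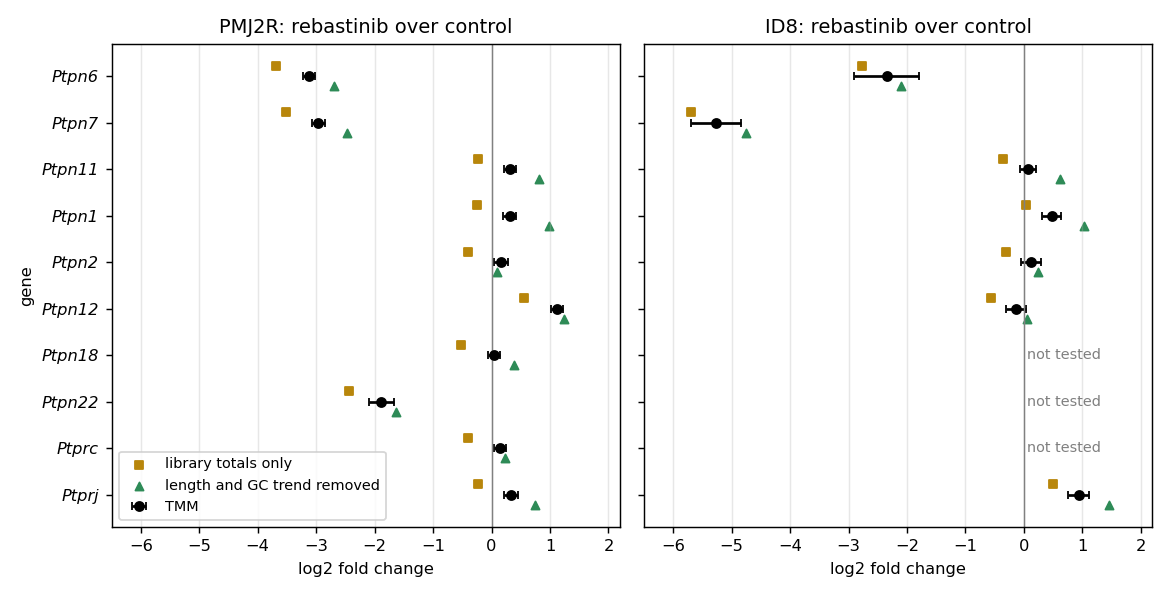
Log2 fold change of each phosphatase, rebastinib over control, in PMJ2R (left) and ID8 (right): black points with 95% intervals are the edgeR fit with TMM scaling, squares the fit scaled by library totals, triangles the fit with the trend over gene length and GC content removed. Ptpn6 and Ptpn7 lie left of 0 under each of the 3, while Ptpn11, Ptpn1, Ptpn2, Ptpn18, Ptprc and Ptprj in PMJ2R and Ptpn11 and Ptpn2 in ID8 are left of 0 with library totals only.

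In ID8 cancer cells, rebastinib libraries likewise held less Ptpn7 and Ptpn6 transcript, at levels far below those in PMJ2R, and more Ptprj and Ptpn1. Of the 10 genes, 7 passed the filter on low counts, and edgeR called 2 higher and 2 lower. Of all 14829 genes tested in this line, 80.4% were called, 38.4% higher and 42.0% lower, so the share of called members was not above the background. The 3 genes that failed the filter were Ptpn18, Ptpn22 and Ptprc, with 13, 4 and 1 counts in the 3 rebastinib libraries together and 4, 4 and 1 counts in the 3 control libraries together. A count of 3 over a group is the limit below which 0 counts would leave a level, for counting error only. By library totals alone it corresponds to 0.0460 CPM with rebastinib and 0.0443 CPM in controls. On the TMM scale of the other CPM values it is 0.0533 CPM with rebastinib.

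Ptpn7 was the member with the lowest fold change in ID8 cells. It had 11, 3 and 8 counts (0.623, 0.185 and 0.358 CPM) in the rebastinib libraries and 398, 372 and 429 counts (15.4, 14.4 and 15.9 CPM) in the control libraries. Treated libraries were thus close to the limit of detection while control libraries were well above it. The log2 fold change was -5.26 (SE 0.22, edgeR adjusted p = 6.33e-11), and 0.425% of the genes tested had a lower one. Ptpn6 had 7, 17 and 33 counts (0.397, 1.05 and 1.48 CPM) with rebastinib and 124, 119 and 161 counts (4.80, 4.59 and 5.98 CPM) in controls. The groups did not overlap, although the treated libraries spread widely. Its log2 fold change was -2.35 (SE 0.28, edgeR adjusted p = 2.61e-06), and 7.13% of the genes tested had a lower one.

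Both genes are known mainly from blood cells, so the marker lists for other cell types in these libraries are given beside them. The summed level of 9 T cell markers was 1.97 to 2.41 CPM in rebastinib ID8 libraries and 12.7 to 15.1 CPM in control ID8 libraries, and 1 of the 9 reached 1 CPM in each group, with Cd3e, Cd3d, Cd2 and Cd4 at 0 counts in both. That of 15 macrophage markers was 33.2 to 38.2 CPM with rebastinib and 14.9 to 16.5 CPM in controls. That of 6 B cell markers was at most 0.264 CPM with rebastinib and 0.307 CPM in controls, that of 7 endothelial markers at most 0.352 CPM with rebastinib and 0.922 CPM in controls, and that of 7 fibroblast markers 148 to 188 CPM with rebastinib and 222 to 239 CPM in controls. Of the T cell markers 2 were tested in ID8, and both were lower with rebastinib, where 42.0% of all genes tested were lower. Trac had a log2 fold change of -2.61 (edgeR adjusted p = 1.86e-09) and Lck one of -2.95 (edgeR adjusted p = 0.000383). The part of other cells in the results for Ptpn6 and Ptpn7 was not tested beyond these values. In PMJ2R cells the summed macrophage markers were 3811 to 3943 CPM with rebastinib and 2426 to 2574 CPM in controls, and 11 of the 14 tested were called higher and 3 lower, or 6 higher and 4 lower with scaling by totals. Of all 14010 genes tested in PMJ2R, 40.1% were higher and 43.6% lower, or 3104 genes higher and 8677 lower with scaling by totals. The summed B cell markers there were 110 to 112 CPM with rebastinib and 167 to 186 CPM in controls, with Ighm the 1 gene of 6 above 1 CPM, and the summed T cell markers were 2.48 to 4.88 CPM with rebastinib and 4.602 to 5.71 CPM in controls.

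Of the 7 members tested in ID8 cells, Ptprj had the highest fold change. It had 80.0, 92.2 and 93.1 CPM in rebastinib libraries and 48.8, 48.9 and 40.8 CPM in control libraries. The groups were well separated, with a log2 fold change of 0.94 (SE 0.089, edgeR adjusted p = 2.11e-07) that stayed positive and called under all 16 other settings, between 0.51 and 1.46. Ptpn1 had 90.6, 77.0 and 87.9 CPM with rebastinib and 65.3, 60.7 and 58.1 CPM in controls, a log2 fold change of 0.47 (SE 0.080, edgeR adjusted p = 7.94e-05), which was 0.04 and not called when libraries were scaled by totals alone. For Ptpn1, too, no treated library fell within the control range.

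The remaining 3 members did not pass the test in ID8 cells with TMM scaling, and their groups overlapped. Ptpn11 had 187, 200 and 216 CPM with rebastinib and 191, 192 and 194 CPM in controls (log2 fold change 0.07, 95% interval -0.07 to 0.20, edgeR adjusted p = 0.391). Ptpn2 had 35.4, 31.7 and 37.8 CPM with rebastinib and 30.1, 32.5 and 33.9 CPM in controls (0.12, -0.05 to 0.30, edgeR adjusted p = 0.211). Ptpn12, which was higher in treated PMJ2R cells, had 78.0, 90.1 and 102 CPM with rebastinib and 97.2, 101 and 97.7 CPM in control ID8 libraries (-0.13, -0.30 to 0.04, edgeR adjusted p = 0.186). In each of the 3 genes the spread among treated libraries was wider than that among controls. Without rebastinib replicate 3, Ptpn12 was called lower (-0.21, edgeR adjusted p = 0.0151). Each of the 3 was called under some other setting: with the length and GC trend removed, Ptpn11 was higher by 0.61 (edgeR adjusted p = 8.19e-08) and Ptpn2 by 0.25 (edgeR adjusted p = 0.00863), and with scaling by totals Ptpn11 (-0.37), Ptpn2 (-0.31) and Ptpn12 (-0.56) were lower. The median of all genes moved too, from -0.07 with TMM to 0.21 with that trend removed and -0.50 with totals. Relative to it, Ptpn11 was 0.40 and Ptpn2 0.03 with the trend removed. With totals Ptpn11 was 0.14, Ptpn2 0.19 and Ptpn12 -0.06 relative to it, the same as with TMM.

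**Figure D3:**
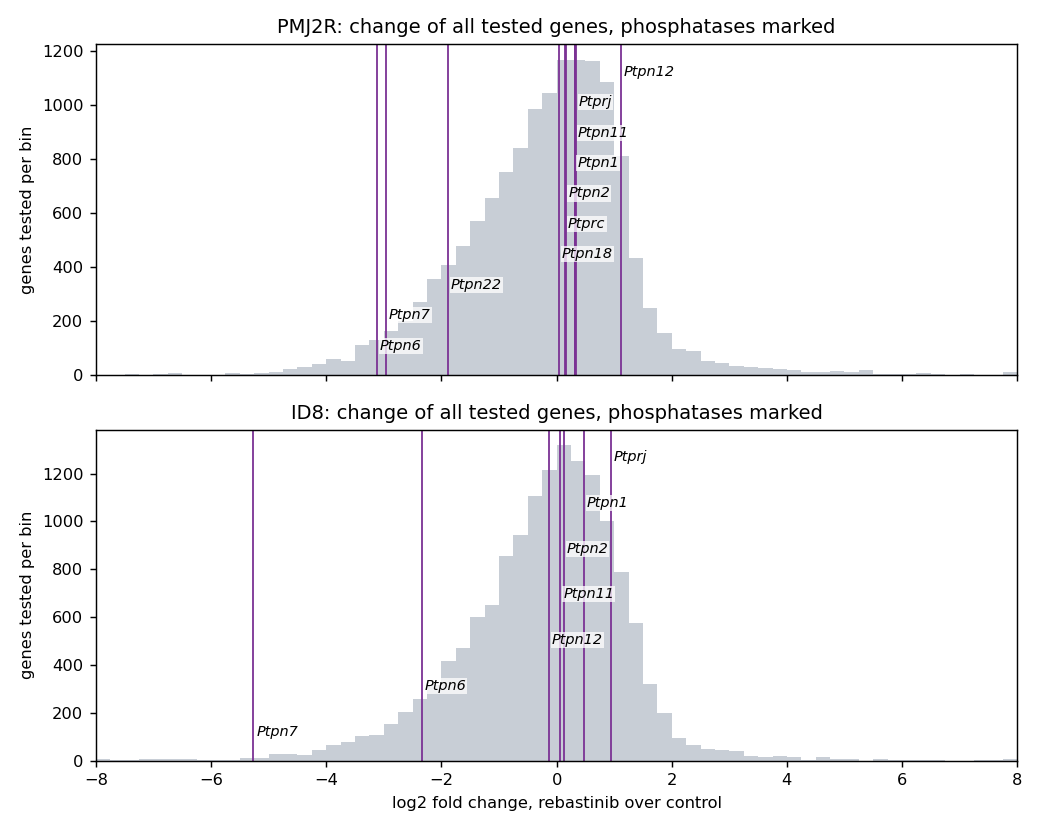
Number of genes tested in each bin of log2 fold change, rebastinib over control, in PMJ2R (top) and ID8 (bottom), with vertical lines at the phosphatases tested in that line (10 in PMJ2R, 7 in ID8). Ptpn6 and Ptpn7 lie in the lower tail in both lines, where 3.10% (Ptpn6 in PMJ2R) and 0.425% (Ptpn7 in ID8) of genes have a lower value, and most of the others lie near the peak.

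Whether a gene responded differently in the 2 lines was tested as an interaction in 1 edgeR fit over all 12 libraries, as the response in PMJ2R minus that in ID8. Of the 10 genes, 5 were called, 2 with a higher and 3 with a lower response in PMJ2R, against 52.4% of the 16566 genes tested, 21.8% higher and 30.6% lower. Ptpn7 fell less in PMJ2R than in ID8, by 2.24 on the log2 scale (SE 0.25, edgeR adjusted p = 6.25e-08). Ptpn12 responded more positively in PMJ2R (1.19, edgeR adjusted p = 1.85e-09) and Ptprj less positively (-0.66, edgeR adjusted p = 2.98e-05). The difference for Ptpn6 was -0.84 (SE 0.28, edgeR adjusted p = 0.0138), a larger fall in PMJ2R, but it rested on 1 library: without ID8 rebastinib replicate 3 it was -0.33 with an adjusted p of 0.460, and with limma-voom it was -0.68 with an adjusted p of 0.0835. The difference for Ptpn18 was -2.08 (edgeR adjusted p = 0.0165) and rested on 13 and 4 counts in ID8 cells; without ID8 rebastinib replicate 1, which held 9 of the 13 counts, it was -0.98 with an adjusted p of 0.424. Ptpn11, Ptpn1, Ptpn2, Ptpn22 and Ptprc were not called, with adjusted p-values of 0.0597, 0.0842, 0.910, 0.0665 and 0.931 by edgeR.

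The lines themselves held different sets of these phosphatases, above all in Ptpn6, Ptpn7, Ptpn18, Ptpn22 and Ptprc. Between the control groups, PMJ2R over ID8, 5 of the 10 genes were called higher in PMJ2R, 3 lower and 2 not called, when 82.3% of 15924 genes tested were called, 39.4% higher and 42.9% lower. Between the rebastinib groups 6 were higher, 2 lower and 2 not called, when 82.5% of 14496 genes tested were called, 39.9% higher and 42.6% lower. The lines grew in different media and were harvested differently, ID8 with trypsin and PMJ2R without it, which cannot be told apart from the cell type.

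The 5 genes higher in PMJ2R in both comparisons were Ptpn6, Ptpn7, Ptpn18, Ptpn22 and Ptprc, and Ptpn12 was higher between the rebastinib groups alone. On the scale of each comparison, Ptpn6 stood at 29.4 ± 1.73 CPM in rebastinib PMJ2R and 0.793 ± 0.442 CPM in rebastinib ID8 (SD, n = 3 each), a log2 ratio of 5.15 (edgeR adjusted p = 1.03e-11). Between controls it stood at 348 ± 11.2 CPM in PMJ2R and 6.12 ± 0.852 CPM in ID8, a log2 ratio of 5.82 (edgeR adjusted p = 6.87e-22). Ptpn7 stood at 23.1 ± 1.31 CPM in rebastinib PMJ2R and 0.316 ± 0.179 CPM in rebastinib ID8, and at 244 ± 9.58 CPM in control PMJ2R and 18.2 ± 0.845 CPM in control ID8. Ptpn18 was at trace level in ID8, at 5574 counts in rebastinib PMJ2R and 13 in rebastinib ID8, and at 10268 counts in control PMJ2R and 4 in control ID8. The ratio per total count was 479 (exact 95% interval 280 to 900, counting error only) with rebastinib and 2308 (901 to 8474) in controls. For Ptpn22 the ratio was 72.4 (27.9 to 268) with rebastinib and 409 (159 to 1502) in controls. For Ptprc, with 1 count in each ID8 group, the interval of the ratio ran from 4157 to 914870 with rebastinib.

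The genes found in most tissues were at closer levels in the lines, and Ptpn12 changed its order between them with treatment. Ptpn12 stood at 131 ± 4.74 CPM in rebastinib PMJ2R and 73.4 ± 9.71 CPM in rebastinib ID8, but at 82.2 ± 3.17 CPM in control PMJ2R and 118 ± 2.80 CPM in control ID8, although the difference between controls was -0.07 and not called with the length and GC trend removed. Ptpn11 was at 154 ± 2.89 CPM in rebastinib PMJ2R and 164 ± 11.7 CPM in rebastinib ID8, and at 168 ± 9.42 CPM in control PMJ2R and 230 ± 1.28 CPM in control ID8. Ptprj was at 45.7 ± 1.34 and 72.1 ± 6.11 CPM in rebastinib PMJ2R and ID8, and at 49.2 ± 3.39 and 55.3 ± 5.85 CPM in control PMJ2R and ID8. With the trend over gene length and GC content removed, Ptpn11 and Ptpn1 were higher in PMJ2R in both comparisons and Ptprj in the control one. The median of all genes was then 0.48 between controls and 0.28 between rebastinib groups. Relative to it, Ptpn11 was -0.21 between controls, against -0.43 with TMM, and 0.05 between rebastinib groups. Ptpn1 was 0.27 between controls and 0.33 between rebastinib groups relative to it. Between controls, Ptprj was 0.13 and Ptpn12 -0.55 relative to it. No order between lines is therefore given for Ptpn11 and Ptpn1, nor for Ptprj between controls. Between the rebastinib groups Ptprj was lower in PMJ2R and called under every setting run, with log2 ratios from -0.82 to -0.24.

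Per exon length, rebastinib PMJ2R cells were led by Ptpn12 at 43.1 ± 1.41 RPKM (SD, n = 3), ahead of Ptpn11 (23.7) and Ptprc (23.5), which overlapped, and Ptpn18 (17.9). Ptpn1 (12.5), Ptpn6 (12.1) and Ptpn2 (11.8) formed an overlapping run behind them, and Ptprj (6.29), Ptpn7 (4.35) and Ptpn22 (0.797) closed the order. In control PMJ2R cells Ptpn6 led at 105 ± 2.09 RPKM, ahead of Ptpn7 at 33.9 ± 0.913 RPKM. Ptprc (21.2), Ptpn12 (19.9), Ptpn11 (18.98) and Ptpn18 (17.3) followed, each overlapping its neighbour, and then Ptpn2 (10.6) and Ptpn1 (10.04), which overlapped, Ptprj (4.99) and Ptpn22 (2.94). SHP-1 thus stood among the middle levels with rebastinib and at the top in controls.

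In ID8 cells, Ptpn11 (26.8 RPKM) and Ptpn12 (25.6) overlapped at the top with rebastinib, ahead of Ptpn1 (15.4), Ptpn2 (11.2) and Ptprj (10.6), of which Ptpn2 and Ptprj overlapped. Ptpn6 (0.347) and the genes at trace level followed. In control ID8 cells the order was Ptpn12 (28.1 RPKM), Ptpn11 (25.7), Ptpn1 (11.1) and Ptpn2 (10.3), which overlapped, Ptprj (5.53), Ptpn7 (2.50) and Ptpn6 (1.83). Levels per length assume that all annotated exons of a gene are used, which weighs on Ptprc, whose annotated exons span 18313 bp.

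The genes that act around these phosphatases were described from lists. The counts below stand beside 40.1% higher and 43.6% lower of all genes tested in PMJ2R (median -0.05) and 38.4% higher and 42.0% lower in ID8 (median -0.07), and nothing is read from a count near these shares. With scaling by totals, 3104 of all 14010 genes in PMJ2R were higher and 8677 lower (median -0.60). In ID8 these were 3540 and 8475 of 14829 (median -0.50). With the length and GC trend removed, 6436 genes were higher and 5207 lower in PMJ2R (median 0.13). In ID8 they were 7120 and 5061 (median 0.21). Counts under these settings stand beside those numbers. In PMJ2R cells, of 15 inhibitory receptors that recruit SHP-1 or SHP-2 through tyrosine motifs, 14 were tested, and 12 were lower with rebastinib, 0 higher and 2 not called, with a median log2 fold change of -1.23 against -0.05 for all genes tested. The count was 13 lower when libraries were scaled by totals, and 11 lower and 1 higher with the length and GC trend removed. Sirpa, the receptor for the CD47 signal, was at 131 ± 2.81 CPM with rebastinib and 303 ± 15.5 CPM in controls (SD, n = 3 each). Pirb, a receptor for MHC class I, was at 0.772 ± 0.114 CPM with rebastinib and 5.94 ± 0.713 CPM in controls, and Lair1, a collagen receptor, at 4.02 ± 0.259 and 10.6 ± 0.955 CPM. The log2 fold changes were -1.21 for Sirpa, -2.94 for Pirb, -1.39 for Lair1 and -0.78 for Lilrb4a, each with an edgeR adjusted p of 0.000895 or lower. SHP-1, which these receptors recruit, was lower in the same libraries. In ID8 cells 6 of the 15 were tested, and 4 were lower, 1 higher and 1 not called, with a median of -1.64 against -0.07 for all genes. Cd300a had 0 counts with rebastinib and 54 in controls, at least 12.8-fold lower when 3 counts over the group are taken as the floor, and the median is the same with that gene at its bound.

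Docking proteins bring SHP-2 to activated receptors. Of 10 such genes 7 were tested in PMJ2R cells, and 5 were higher, 0 lower and 2 not called, with a median of 0.86 against -0.05 for all genes, of which 40.1% were higher, or 4 higher and 2 lower with scaling by library totals. Gab2, a scaffold phosphorylated after growth factor stimulation, was at 72.1 ± 1.57 CPM with rebastinib and 18.7 ± 1.53 CPM in controls (log2 fold change 1.94, edgeR adjusted p = 1.42e-14). Frs2, the docking protein of FGF receptors, was at 80.0 ± 1.28 CPM with rebastinib and 25.8 ± 1.50 CPM in controls (1.63, edgeR adjusted p = 3.20e-14), and the adaptor Grb2 at 181 ± 2.49 and 99.5 ± 7.82 CPM (0.86, edgeR adjusted p = 5.79e-11). Gab3 was not called (-0.53, edgeR adjusted p = 0.191). In ID8 cells 5 of 9 tested were higher, 2 lower and 2 not called, with a median of 0.22, but 1 higher and 5 lower with scaling by totals. There Irs1, the insulin receptor's docking protein, was at 2.06 ± 0.200 CPM with rebastinib and 19.6 ± 0.954 CPM in controls (-3.25, edgeR adjusted p = 4.94e-11), the reverse of Frs2 (0.58) and Gab2 (0.44), of which neither was called with scaling by totals.

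Among SRC family kinases, CSK and the partners of the PEST family, 3 of 11 tested genes were higher, 7 lower and 1 not called in PMJ2R cells, with a median of -0.81. Csk, the kinase that the PEST phosphatase PEP binds, was at 126 ± 8.46 CPM with rebastinib and 263 ± 14.2 CPM in controls (-1.06, edgeR adjusted p = 3.38e-12), and both partners of this inhibitory pair were lower. Pag1, the membrane anchor of CSK, was lower (-0.81) and Lyn, a SRC family kinase of myeloid cells, was higher (1.09). In ID8 cells 3 of 10 tested were higher, 4 lower and 3 not called, with a median of -0.13, close to that of all genes. The split turned to 3 higher and 7 lower with scaling by totals, and to 7 higher and 2 lower (median 0.33) with the length and GC trend removed, so no direction is given for this list in ID8. Pag1 was lower there too (-0.90) and Lyn higher (0.73), while Csk was not called (0.09, edgeR adjusted p = 0.331).

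Of the substrates of PTP1B, TC-PTP and SHP-1, 2 of 11 tested in PMJ2R were higher, 7 lower and 2 not called (median -0.65), where 43.6% of all genes were lower, and with the length and GC trend removed 3 were higher and 6 lower. In ID8 2 of 13 were higher, 8 lower and 3 not called (median -0.24), where 42.0% of all genes were lower, but 7 were higher and 4 lower with that trend removed. The JAK family was split. Tyk2 was lower in both lines, at 7.02 ± 0.616 CPM with rebastinib and 37.3 ± 0.795 CPM in controls in PMJ2R and at 5.38 ± 1.20 and 23.6 ± 0.669 CPM in ID8. Jak1 was higher in PMJ2R (1.16, edgeR adjusted p = 5.79e-14) and not called in ID8 (0.14, edgeR adjusted p = 0.121), Jak2 was lower in PMJ2R (-0.65) and not called in ID8 (-0.15, edgeR adjusted p = 0.185), and Jak3 was lower in ID8 (-1.65) and not called in PMJ2R (0.07, edgeR adjusted p = 0.514).

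The MAP kinases, on which the PTPN7 class acts, were divided in PMJ2R, where 2 of 5 tested were higher and 3 lower. Mapk3 (ERK1) was higher by 0.46, which turned to -0.10 with scaling by totals, Mapk14 (p38 alpha) was lower by 0.50, which turned to 0.05 with the length and GC trend removed, and Mapk11 (p38 beta) was lower (-1.24). In ID8 3 of 5 were higher and 2 lower.

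The rest of the family was described as receptor and non-receptor phosphatases. Of 19 other receptor phosphatases, 5 were tested in PMJ2R, with 0 higher, 4 lower and 1 not called (median -0.82), and 11 in ID8, with 1 higher, 9 lower and 1 not called (median -0.66). With the length and GC trend removed these were 2 higher and 2 lower in PMJ2R and 3 higher and 3 lower in ID8. Ptpro, a receptor phosphatase of macrophages and podocytes, was at 1.44 ± 0.2499 CPM in rebastinib PMJ2R and 14.2 ± 1.57 CPM in control PMJ2R (-3.30, edgeR adjusted p = 1.14e-12). Ptpre, whose short form is cytosolic, was lower by 1.18 in PMJ2R. Of 9 other non-receptor phosphatases, 4 were tested in PMJ2R, with 2 higher (Ptpn9 by 0.86 and Ptpn4 by 0.56), 0 lower and 2 not called, and 8 in ID8, with 3 higher, 4 lower and 1 not called. In ID8 these were 0 higher and 6 lower with scaling by totals, and 4 higher and 3 lower with the length and GC trend removed, and in PMJ2R 1 higher and 2 lower, and 4 higher and 0 lower. Ptpn4 was at 0.00 with scaling by totals. In ID8, Ptpn13 was lower, at 29.4 ± 0.712 CPM with rebastinib and 83.3 ± 5.61 CPM in controls (-1.50, edgeR adjusted p = 5.21e-10).

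**Figure D4:**
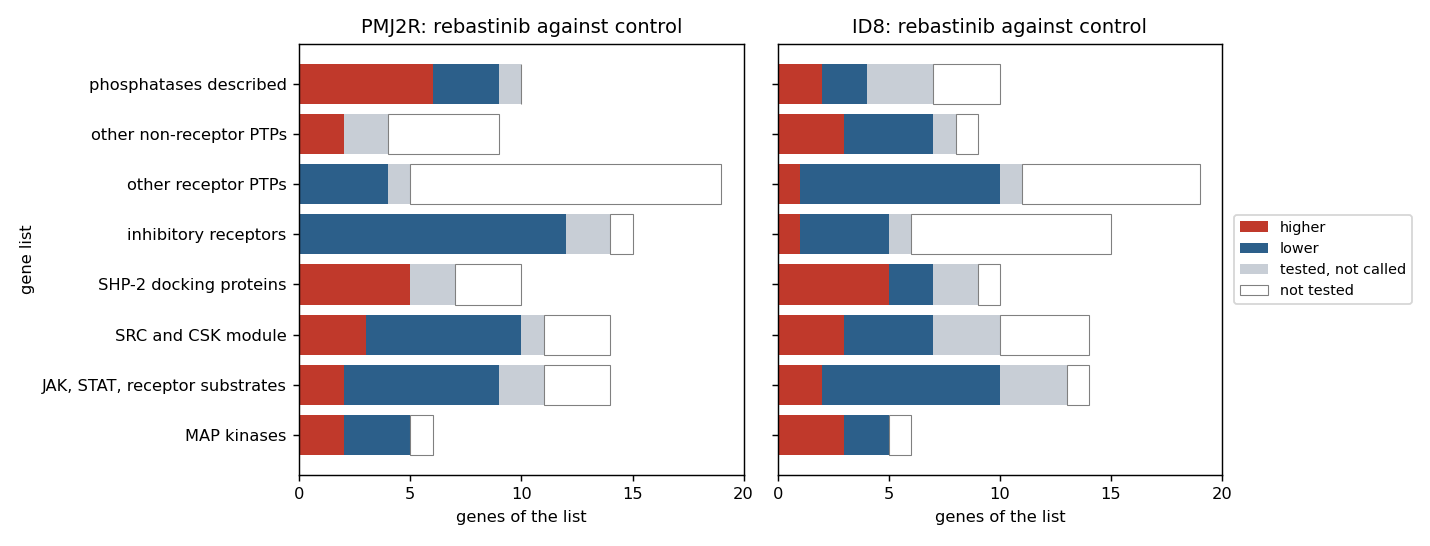
Number of genes of each list called higher (red), called lower (blue), tested and not called (grey) or not tested (white) by edgeR with TMM scaling, rebastinib against control, in PMJ2R (left) and ID8 (right). Of the inhibitory receptors 12 of 14 tested are lower in PMJ2R (13 with scaling by library totals). The phosphatases described are 6 higher and 3 lower there, which turns to 1 higher and 9 lower with scaling by totals. Of all 14010 genes tested in PMJ2R, 3104 are then higher and 8677 lower, against 5623 and 6107 with TMM.

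The genes whose profile was most like that of Ptpn6 were found by the root mean square distance between gene-centred log2 CPM over the 12 libraries, among 12897 protein-coding genes. The 5 nearest were Fut7 (0.40 log2 units), Sema6b (0.46), Sfmbt2 (0.52), Pik3cd (0.55) and Arap3 (0.57). Pik3cd, the PI3-kinase catalytic subunit of leukocytes, averaged 6.87 CPM in rebastinib PMJ2R and 124 CPM in control PMJ2R, and 0.471 CPM in rebastinib ID8 and 2.13 CPM in control ID8. Fut7, the fucosyltransferase that makes selectin ligands, averaged 1.67 CPM in rebastinib PMJ2R and 11.4 CPM in control PMJ2R, and its ID8 levels of 0.0147 CPM with rebastinib and 0.151 CPM in controls were near or under the limit that 3 counts in a library allow. With 12 libraries in 4 groups, the distance reflects mainly the 4 group means, and a common scaling of the libraries cancels in it.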

How the data were processed

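The authors deposited 1 table of raw read counts per gene for 12 libraries; per the submitters' processing notes, STAR 2.6.1c, featureCounts, FastQC and DESeq2 were used on GRCm38. Of the counting, neither the annotation release nor the strand setting is given in the sources used here. Symbols and exon lengths came from GENCODE vM21 on GRCm38; 181 of 55421 identifiers had no symbol and held 0.00261% of counts. Promoter windows came from RefSeq (GRCm38.p6).

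Counts were tested with edgeR 4.0.16 in R 4.3.3 (TMM, filterByExpr, robust quasi-likelihood, Benjamini-Hochberg at 0.05 over all genes tested), fitted on the libraries of each comparison, or on all 12 for the interaction. Standard errors are the log2 fold change divided by the root of F, and 95% intervals assume normal errors. CPM and RPKM use the library sizes of the same fit. An exact permutation test of 3 against 3 cannot go below 0.1 and was not used. Alternatives were DESeq2 1.42.0, limma-voom (limma 3.58.1), RLE factors, library totals alone, no filter, a stricter filter (average level of 5 CPM or more), blocking on the replicate number, removal of a trend over exon length and GC content (natural splines, 5 degrees of freedom each), 1 fit over 12 libraries, and leaving out each library.

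The 10 genes and all gene lists were chosen with earlier results of these data known. The text names all 10, and from each pathway list only genes among the first 4, in list order, that passed the filter, whatever their change; for Ptpn6 it takes the 5 nearest profiles. Markers at 0 counts, and Ighm, were named after their values were seen. Some list genes are not reported here by name. The numbers of the replicates did not pair the libraries. No pair of replicates was closer than sampling noise.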

Additional observations from a re-analysis of the deposited data

Results flagged for a closer look

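The response to rebastinib differed between the lines by the interaction test in edgeR for 5 of the 10 phosphatases, a share near the 52.4% of all 16566 genes tested. The differences, PMJ2R minus ID8 on the log2 scale, were 2.24 for Ptpn7, 1.19 for Ptpn12, -0.66 for Ptprj, -0.84 for Ptpn6 and -2.08 for Ptpn18. Those of Ptpn7, Ptpn12 and Ptprj kept their sign and their call under all 21 other settings, within 1.95 to 2.68, 1.06 to 1.31 and -0.92 to -0.54. The call of Ptpn6 was lost without ID8 rebastinib replicate 3 (-0.33, edgeR adjusted p = 0.460) and with limma-voom (-0.68, adjusted p = 0.0835), and that of Ptpn18, which rests on 13 counts in rebastinib and 4 in control ID8 libraries, was lost without ID8 rebastinib replicate 1 (-0.98, edgeR adjusted p = 0.424).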

How the results depend on the processing

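Low counts limit Ptpn6 and Ptpn7 in rebastinib ID8 libraries and Ptpn18, Ptpn22 and Ptprc in all ID8 libraries. With library totals alone, the members called were 1 higher and 9 lower in PMJ2R, and 1 higher and 5 lower in ID8; Ptpn18 was -0.51 in PMJ2R, and Ptpn11 and Ptpn2 were -0.37 and -0.31 in ID8. The PMJ2R values that turned negative besides were -0.24 (Ptpn11), -0.25 (Ptpn1), -0.40 (Ptpn2), -0.41 (Ptprc) and -0.22 (Ptprj). Of all called genes, the share that was higher was then 26.3% in PMJ2R, against 47.9% with TMM, and 29.5% in ID8, against 47.7%. Without the expression filter 1 member was higher in PMJ2R, with Ptpn2 at -0.049, Ptpn18 at -0.16 and Ptprc at -0.056. With the length and GC trend removed, with or without the replicate block, 4 members were higher in ID8, where Ptpn12 was 0.052 without the block and 0.046 with it. In PMJ2R over ID8, 9 were then higher and 0 lower between controls (Ptpn11 0.27, Ptpn1 0.75, Ptprj 0.61) and 1 lower between rebastinib groups (Ptpn11 0.33, Ptpn1 0.61); the share higher of all called genes was 66.1% against 47.9% for controls, 59.4% against 48.4% with rebastinib, and 58.5% against 47.7% for ID8.

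The replicate numbers did not pair the libraries (correlations of same-numbered deviations between -0.10 and 0.09). With the replicate block, 11418 genes were called in ID8, 11726 in PMJ2R, 12841 between controls, 11998 between rebastinib groups and 8419 for the interaction; of the members' calls, that of Ptpn1 between controls was lost (edgeR adjusted p = 0.0660), as it was without single libraries (0.0818 to 0.145).

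Leaving out single libraries gave 1 to 3 members lower in PMJ2R over ID8 with rebastinib. Values near 0 also changed sign: Ptpn11 in ID8 (-0.025 at 5 CPM or more), Ptpn18 in PMJ2R (-0.0090 at 5 CPM or more, -0.018 in 1 fit over 12 libraries), and Ptpn2 between controls (-0.0059 with DESeq2 and with RLE factors, -0.0047 without the filter, and -0.036 to 0.042 without single libraries). In the interaction, Ptpn2 was 0.10 with DESeq2 and with RLE factors, 0.055 at 5 CPM or more and -0.10 to 0.038 without single libraries, and Ptprc, with 1 count in each ID8 group, was -1.964 to 1.78 without single libraries. Ptpn6 in ID8 had no value at 5 CPM or more. The cause of these changes was not tested.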

Other observations

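Other phosphatases of the family differed between the lines as well, where 39.4% of all genes tested between the control groups were higher and 42.9% lower in PMJ2R. With the trend over gene length and GC content removed, 9225 of 15924 genes were higher and 4739 lower between controls. Between the rebastinib groups 7301 of 14496 were then higher and 4986 lower. Of the other receptor phosphatases 12 were tested between the control groups, and 3 were higher and 9 lower in PMJ2R than in ID8, or 5 higher and 7 lower with the trend over gene length and GC content removed. Ptprf (LAR), which acts at cell-cell contacts of epithelia, had 2 counts in rebastinib PMJ2R and 2602 in rebastinib ID8, and 5 counts in control PMJ2R and 6094 in control ID8. Of the other non-receptor phosphatases 8 were tested between controls, with 1 higher and 7 lower in PMJ2R, or 2 higher and 6 lower with that trend removed; between the rebastinib groups 1 of 7 was higher and 6 lower, or 3 higher and 4 lower. Ptpn13, a large scaffold-like phosphatase of epithelial cells, had 5 counts in rebastinib PMJ2R and 1656 in rebastinib ID8, and 1 count in control PMJ2R and 6551 in control ID8.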
